A study of Mus musculus with 11 samples.

Results

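Mouse lymphatic endothelial cells (LECs) were compared after co-culture with the skin squamous carcinoma line HaCa4, also from mouse, and after single culture. All 191 genes with a deposited LEC value were included, out of 458 genes in the whole series, in 6 of its 11 libraries. LEC-sorted (n = 3) were isolated by FACS, with an antibody to CD31, after 24 h of co-culture, and LEC control (n = 3) were grown without HaCa4 cells. The other 5 libraries, HaCa4 control (n = 2) and HaCa4-sorted (n = 3), served here for the genes listed in both cell lines and as a reference for markers.

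All 6 LEC libraries came from a dermal line derived from mice carrying the H-2Kb-tsA58 transgene, which encodes a thermolabile SV40 large T antigen and makes the cells conditionally immortal. The study kept a pair of LEC clones and used them interchangeably, and which clone each library came from is not given in the sources used here. HaCa4 cells were labelled with the dye CFSE for the sorting, and dead cells and doublets were excluded. The study's methods give staining and sorting for the co-cultures, whereas its description of the groups can also be read as sorting of the control cells. Unless the controls were sorted too, co-culture and the sorting procedure cannot be told apart in any difference below. No source used here says whether the replicates were separate cultures, and p-values therefore measure the spread between these libraries, which may be technical.

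Lymphatic vessels drain fluid and carry leukocytes to lymph nodes, and their endothelium shapes this traffic through chemokines, adhesion molecules, and growth factors. Inflamed endothelium typically switches on such genes through NF-κB, a family of transcription factors held in the cytoplasm by IκB inhibitors until a stimulus releases them. Several NF-κB targets encode inhibitors of the pathway, which limit its duration.

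The values are TPM, a measure of transcript abundance corrected for gene length, with the same total in every library. TPM keep no record of read numbers, so the depth is unknown and no counting error can be given. The listed genes made up 2.51 to 3.04% of all TPM in the 3 controls and 2.99 to 3.85% in the 3 LEC-sorted libraries. Differences are given as log2(TPM + 1), a scale that makes changes of genes with few transcripts look smaller than they are, and were tested by limma with Benjamini-Hochberg adjustment over the 191 genes. A gene was called where its log2 fold change reached 0.5 in either direction with an adjusted p not above 0.05.

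Of the 191 genes, 127 were higher and 64 lower in LEC-sorted. The calls comprised 184 genes (96.3%), of which 122 were higher (63.9%) and 62 lower (32.5%), and the libraries of both groups did not overlap in 185 genes (96.9%). The genes were listed by the study for their difference between these same libraries, so neither the calls nor their directions are independent evidence, and a gene group in which all members were called does not stand apart from the rest. Bringing all libraries to a common median of these genes, called the scaling below, moved the log2 fold changes by a median of -0.61 and left 46 higher and 64 lower calls. This shift enlarges falls and shrinks rises, and all 62 lower calls were kept. A call kept under the scaling says little for a lower gene. Gene groups are therefore described with the members whose call was lost under this scaling.

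The genes that rose and those that fell came from different ranges of abundance. Among the 127 higher genes, the median level went from 12.3 TPM in the control to 44.8 TPM in LEC-sorted, and 26 had a control mean under 1 TPM. Among the 64 lower genes, the median level went from 51.2 to 30.0 TPM, and 0 had a control mean under 1 TPM. Rises were also larger, as 26 higher genes reached a log2 fold change of 2 and 9 reached 4, whereas 21 lower genes reached -1 and 0 reached -2. These counts moved with the scaling, under which 15 higher genes reached 2 and 8 reached 4, and 64 lower genes reached -1 and 3 reached -2. Part of the contrast in level and in size is built in. A gene with a control mean under 1 TPM cannot fall by 1 on log2(TPM + 1), whereas its rise has no such bound.

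**Figure D1:**
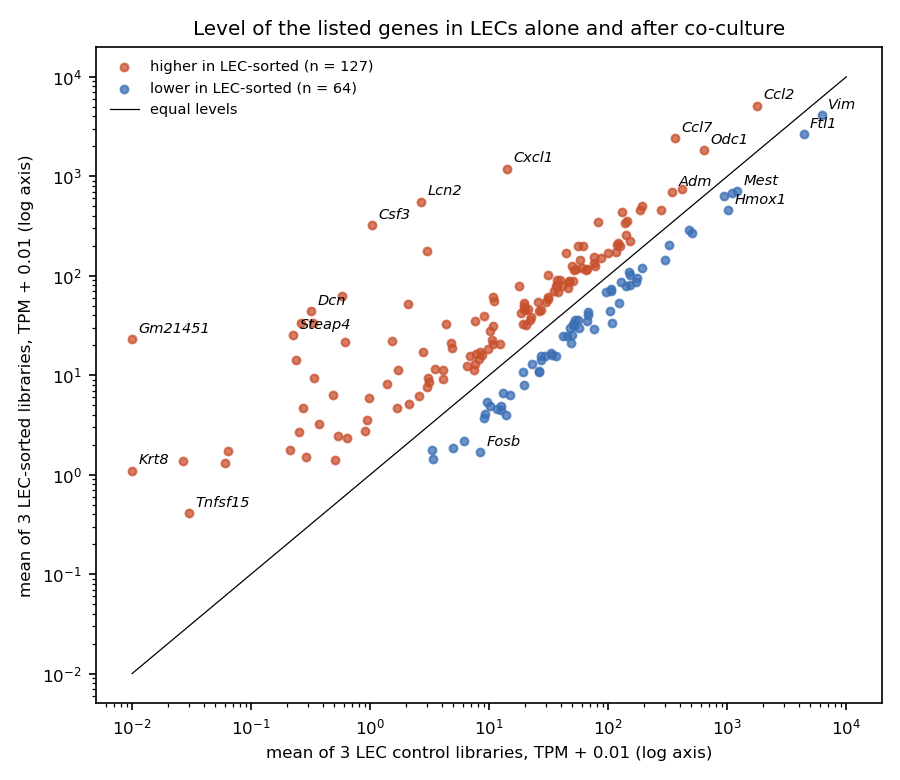
Each point is a listed gene, with the mean of 3 LEC control libraries on the x axis and the mean of 3 LEC-sorted libraries on the y axis, both in TPM + 0.01 on log axes. The 127 higher genes (orange) spread far above the line of equal levels at the low end, where *Csf3* and *Lcn2* lie, and the 64 lower genes (blue) stay close below it.

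A few abundant transcripts carried most of the change in TPM. The 127 higher genes gained 14661 TPM in sum, and 53.1% of it belonged to *Ccl2*, *Ccl7*, *Cxcl1*, and *Odc1*. The 64 lower genes dropped by 7717 TPM in sum, and 63.3% of it belonged to *Vim*, *Ftl1*, *Hmox1*, and *Mest*. These 8 genes were picked after their values had been seen.

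CXC chemokines, most of which attract neutrophils, were among the groups with the highest medians. All 5 listed members were called higher, with a median log2 fold change of 4.49 against 0.87 over all listed genes, and all 5 calls held under the scaling. *Cxcl1* was at 10.6, 12.4, and 19.2 TPM in LEC control, compared with 1203, 1775, and 597 TPM in LEC-sorted replicates 1 to 3, so that the lowest sorted library was far above the highest control. *Cxcl2* was at 0.52, 0, and 0.24 TPM in LEC control against 44.4, 48.5, and 8.58 TPM in LEC-sorted. *Cxcl5* was at 1.29, 1.22, and 6.44 TPM in LEC control and at 149, 289, and 94.2 TPM in LEC-sorted. The low library within LEC-sorted was replicate 3 in each of them. *Pf4*, a chemokine best known from platelets, changed least, from 9.76, 3.59, and 13.7 TPM to 50.04, 46.3, and 21.3 TPM (log2 fold change 2.07, standard error 0.50).

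The promoters of *Cxcl1*, *Cxcl2*, *Cxcl3*, and *Nfkbia* each held a match to the NF-κB site, searched on both strands as GGGA, any 2 bases, and TTCC in the 300 bases around each start site (250 before it and 50 after). Such a match stood in 1.63% of 27025 RefSeq genes with a promoter sequence. The sequences were picked for holding the match, from the 15 largest rises and the genes *Nfkbia*, *Nfkbiz*, and *Bcl3*. Of these, *Nfkbia* encodes an inhibitor of NF-κB itself. No match was found for *Nfkbiz* and *Bcl3*, but whether a promoter sequence was available for them is not given here. Each printed sequence is the 120 bases before the RefSeq start site in GRCm38.p6, 5′ to 3′ on the gene's strand, with the match in capitals.
Cxcl1 (chr5:90891125-90891244, plus strand): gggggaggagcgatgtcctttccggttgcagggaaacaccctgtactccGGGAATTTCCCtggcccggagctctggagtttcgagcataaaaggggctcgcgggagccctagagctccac
Cxcl2 (chr5:90903779-90903898, plus strand): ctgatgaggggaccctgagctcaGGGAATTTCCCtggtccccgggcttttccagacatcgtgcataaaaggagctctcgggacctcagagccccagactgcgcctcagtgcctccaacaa
Cxcl3 (chr5:90785981-90786100, plus strand): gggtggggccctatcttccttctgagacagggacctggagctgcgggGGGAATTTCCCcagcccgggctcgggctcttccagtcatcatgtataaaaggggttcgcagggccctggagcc
Nfkbia (chr12:55492648-55492767, minus strand): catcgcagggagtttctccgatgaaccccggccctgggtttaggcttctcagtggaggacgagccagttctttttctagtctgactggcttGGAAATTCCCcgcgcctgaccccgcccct

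The match began 71, 97, and 73 bases before the start site in *Cxcl1*, *Cxcl2*, and *Cxcl3*, where the same letters matched on both strands, and 29 bases before it in *Nfkbia*. A match describes the sequence alone and does not show binding. A promoter sequence was matched for 147 of the 191 genes (77.0%), which is too few for a check over the list, and the counts below cover the matched promoters alone. Most of these lacked the NF-κB letters, which stood in 10 of 97 higher and 1 of 50 lower genes. The AP-1 site, searched as TGA, any base, and TCA, stood in 18 of 97 higher and 3 of 50 lower genes, against 8.97% of all promoters. The C/EBP site, searched as TTGC, any 2 bases, and AA, stood in 18 of 97 higher and 5 of 50 lower genes, against 12.2% of all promoters. Of the 15 largest rises, 11 had a promoter sequence, of which 3 held the NF-κB, 1 the AP-1, and 6 the C/EBP letters.

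CC chemokines, which attract monocytes and lymphocytes, were listed with 4 members, all called higher with and without the scaling (median log2 fold change 2.05). *Ccl2*, the main monocyte attractant, was already abundant in the controls at 1319, 2250.5, and 1753 TPM and reached 4332, 6413, and 4665 TPM in LEC-sorted. *Ccl7*, its neighbour on chromosome 11, went from 270.3, 502, and 313 TPM to 3978, 2419, and 900.5 TPM. *Ccl20*, the ligand of CCR6, went from 1.29, 4.62, and 0.35 TPM to 38.8, 100.1, and 16.2 TPM. None of these genes overlapped between the groups, which held for 185 of all 191 listed genes (96.9%) and does not set them apart. The sorted libraries of *Ccl7* and *Ccl20* spread more widely than their controls. *Ccl9* had the least change, from 3.13 ± 0.17 TPM to 8.49 ± 0.84 TPM (SD, n = 3 each).

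Colony-stimulating factors, which drive the formation and survival of myeloid cells, comprised 3 listed genes, all called higher. *Csf3*, the granulocyte factor, was at 1.43, 0.79, and 0.84 TPM in LEC control, compared with 427, 469, and 78.0 TPM in LEC-sorted. *Csf2*, the granulocyte and macrophage factor, was at 0.41, 1.04, and 0.25 TPM and reached 55.4, 107.6, and 22.8 TPM. *Csf1*, the macrophage factor, behaved differently, with high levels in the controls (496, 347, and 413 TPM) and a smaller rise to 781, 782, and 683 TPM. The log2 fold changes of these genes were 6.97, 5.10, and 0.85 in that order, and the call for *Csf1* was lost under the scaling (log2 fold change 0.22).

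**Figure D2:**
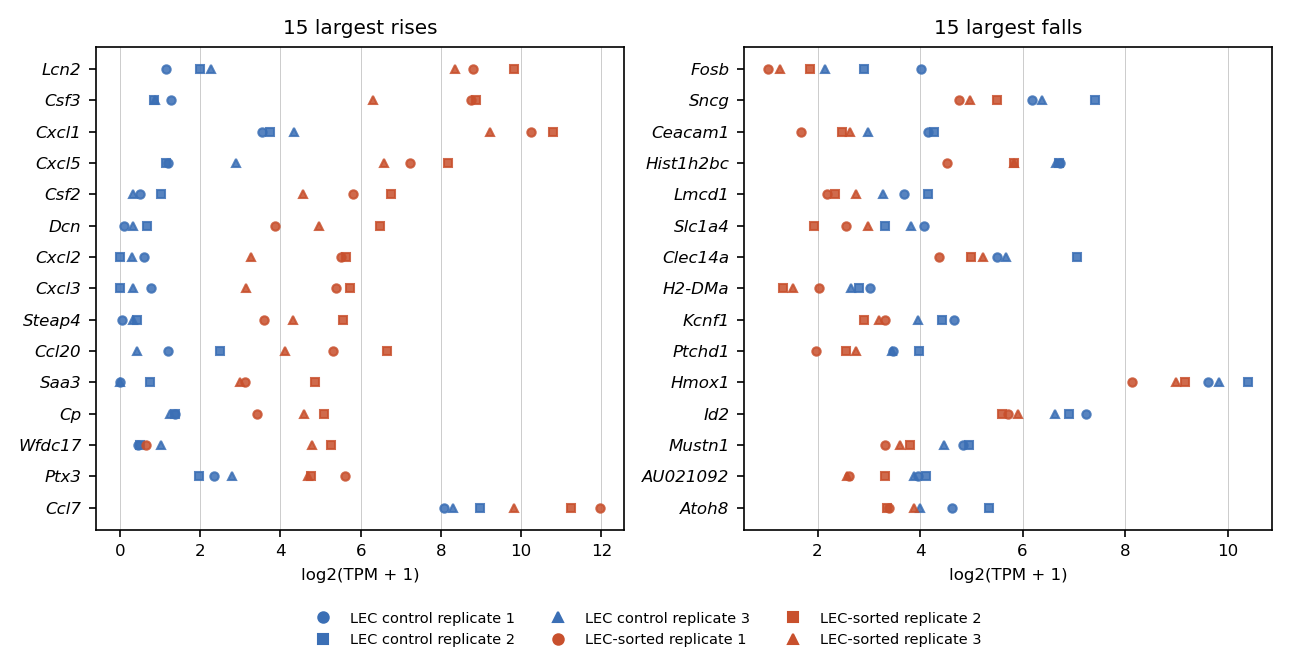
Level of the 15 genes with the largest rise (left) and the 15 with the largest fall (right) in each library, as log2(TPM + 1) on the x axis, with LEC control in blue, LEC-sorted in orange, and the marker shape giving the replicate. Groups are separated in all genes except *Wfdc17*, beside 185 of all 191 listed genes (96.9%). LEC-sorted replicate 2 (square) is the highest sorted library in 13 of the 15 rises.

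*Il6* and *Il23a* stayed at low levels in both groups. *Il6*, the cytokine that drives the acute-phase response, was at 0.37, 0.13, and 0.58 TPM in LEC control against 1.76, 4.31, and 3.65 TPM in LEC-sorted. The IL-6 family cytokine *Lif* rose from 7.80 ± 0.42 TPM to 16.4 ± 3.62 TPM, and *Socs3*, which restrains signalling of this family, rose from 40.7 ± 2.66 TPM to 78.1 ± 12.1 TPM (SD, n = 3 each). The calls for *Lif* and *Socs3* were lost under the scaling, at log2 fold changes of 0.39 and 0.29. *Il13ra2*, a decoy receptor for IL-13, rose from 0.39, 0.64, and 0.41 TPM to 5.68, 8.26, and 5.14 TPM (log2 fold change 2.29, standard error 0.26). *Il23a*, a subunit of IL-23, reached 3.42, 3.84, and 0.77 TPM from at most 0.43 TPM. *Il1r1*, the signalling receptor of IL-1, rose from 37.2 ± 12.1 TPM to 81.2 ± 5.95 TPM (SD, n = 3 each) and lost its call under the scaling. Of 2 listed members of the TNF family, the costimulatory receptor *Tnfrsf9* was called and *Tnfsf15*, an endothelial cytokine, was not.

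All 6 listed NF-κB genes were called higher, with log2 fold changes between 0.79 and 2.06. The largest change was that of *Nfkbiz*, an atypical nuclear IκB protein, at 20.5, 16.4, and 16.6 TPM in LEC control against 88.4, 88.1, and 58.7 TPM in LEC-sorted. *Bcl3*, another nuclear IκB protein, went from 2.10, 6.60, and 5.55 TPM to 14.3, 23.9, and 25.2 TPM. *Nfkbia*, which encodes the classical cytoplasmic inhibitor IκBα, was the most abundant of them and went from 119, 172, and 122 TPM to 363, 364, and 285 TPM. These 3 genes of the IκB family passed under the scaling. The calls of the subunit genes *Nfkb1* and *Nfkb2* and of the kinase gene *Ikbke* were lost under it, at log2 fold changes of 0.40, 0.17, and 0.61.

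Acute-phase, complement, and innate defence genes formed the largest group, with 12 listed members, all called higher (median log2 fold change 2.12). *Lcn2*, an iron-sequestering protein that limits bacterial growth, had the largest rise of all listed genes, from 1.20, 2.98, and 3.83 TPM to 443, 903, and 324 TPM (log2 fold change 7.19, standard error 0.43, adjusted p = 6.74e-05). *Steap4*, a metalloreductase, was at or below 0.35 TPM in the controls and reached 11.1, 45.9, and 19.0 TPM. *Ptx3*, a soluble pattern-recognition protein, differed from most in that replicate 1 was highest, with 48.0, 26.1, and 25.0 TPM in LEC-sorted against 4.06, 2.95, and 5.98 TPM.

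The complement genes *C3*, the central component, and *Cfb*, of the alternative pathway, were lowest in LEC-sorted replicate 1. *C3* reached 26.6, 61.6, and 79.0 TPM from 4.20, 18.7, and 10.1 TPM, and *Cfb* reached 6.31, 14.4, and 13.4 TPM from 0.75, 2.87, and 1.44 TPM. *Cebpd* and *Cebpb*, transcription factors of the acute-phase response, went from 44.1 ± 9.78 to 169 ± 17.8 TPM and from 58.2 ± 8.67 to 144 ± 38.3 TPM (SD, n = 3 each). *Zc3h12a*, an RNase that degrades cytokine mRNAs, rose from 4.83, 5.47, and 4.25 TPM to 22.2, 21.8, and 12.3 TPM. Under the scaling 10 of the 12 genes were still called, and *Cebpb* and the mitochondrial superoxide dismutase gene *Sod2* were not.

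**Figure D3:**
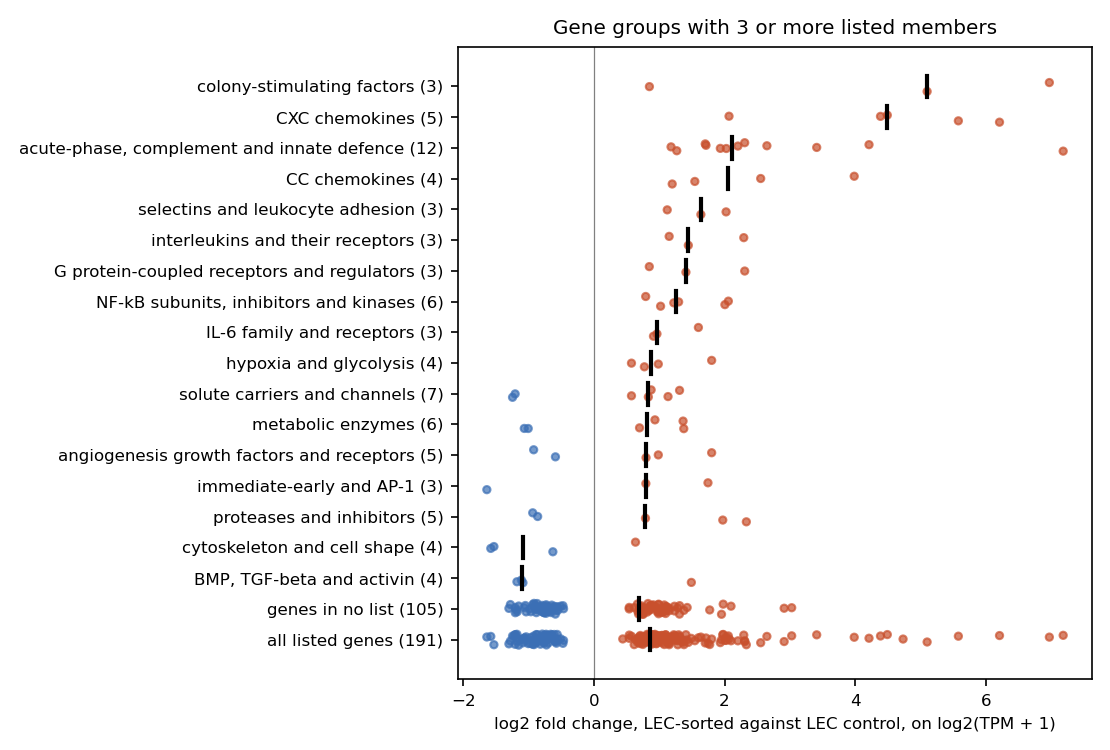
Log2 fold change of LEC-sorted against LEC control (x axis, on log2(TPM + 1)) for the gene groups with at least 3 listed members, the genes in no group, and all listed genes, with the number of genes in brackets, points for genes, and black bars for medians. The colony-stimulating factors and the CXC chemokines have the highest medians, 5.10 and 4.49, against 0.87 over all listed genes.

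Of 26 genes in the list for leukocyte adhesion, 3 were listed, and all 3 were called higher. The selectins slow passing leukocytes on the vessel wall, and VCAM-1 holds them firmly. *Selp* was at 64.2, 115, and 66.2 TPM in LEC control and at 214, 549.9, and 288 TPM in LEC-sorted. *Sele* went from 32.1, 28.8, and 32.2 TPM to 100, 131, and 72.9 TPM. *Vcam1* had the tightest sorted libraries, at 78.4, 81.7, and 76.8 TPM against 27.8, 46.2, and 35.4 TPM, and lost its call under the scaling (log2 fold change 0.51). The integrin gene *Itga7* was called, but not without LEC control replicate 1 (adjusted p = 0.0611), and lost its call under the scaling.

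Endothelial marker genes were detected in every library. *Pdpn*, a surface glycoprotein of lymphatic endothelium and the listed gene among 22 for lymphatic identity, rose from 155, 97.0, and 179 TPM to 436, 379.8, and 239 TPM, without a call under the scaling. Of 51 pan-endothelial genes 2 were listed, and both were called lower. *Kdr*, the VEGF receptor 2, fell from 147, 172, and 137 TPM to 88.5, 97.4, and 117 TPM, and *Clec14a*, an endothelial C-type lectin, from 44.3, 133, and 50.3 TPM to 19.6, 30.8, and 36.6 TPM. Neither call was secure against single libraries. Without LEC control replicate 2 the log2 fold change of *Kdr* moved from -0.59 to -0.50, just short of the threshold, and without LEC-sorted replicate 1 or 2 the adjusted p of *Clec14a* was 0.0876 or 0.0535. Other defining markers, among them the CD31 gene used for the sort, were not analysed here for LECs.

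The listed hypoxia genes were higher, whereas the listed angiogenesis genes moved in both directions. *Angptl4*, a lipoprotein lipase inhibitor induced by hypoxia, rose most, from 53.9, 47.6, and 66.7 TPM to 177, 237, and 180.2 TPM. *Adm*, a peptide with a role in lymphatic growth, went from 401, 306, and 325 TPM to 810.1, 715, and 537 TPM, *Hif1a* from 120 ± 13.0 to 206 ± 34.2 TPM, and the glucose transporter gene *Slc2a1* from 116 ± 5.57 to 173 ± 8.44 TPM (SD, n = 3 each). The last 3 genes were not called under the scaling, where *Slc2a1* turned to -0.05. *Slit2*, a guidance cue, rose by 0.80 on the log2 scale and also lost its call. *Gas6*, a ligand of the TAM receptor kinases, fell from 130.1, 258, and 130.4 TPM to 75.1, 88.6, and 94.9 TPM.

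Of the 4 listed BMP and TGF-β genes, 3 were called lower and 1 higher. *Bmp6*, a ligand, was at 38.8, 48.3, and 21.4 TPM in LEC control, compared with 17.6, 15.4, and 14.1 TPM in LEC-sorted. *Id2*, a common target of BMP signalling, fell from 149, 119, and 98.9 TPM to 51.9, 47.7, and 59.4 TPM (log2 fold change -1.18, standard error 0.19). *Atoh8*, another BMP target, fell by 1.11 on the log2 scale. It missed the threshold narrowly when LEC control replicate 2, LEC-sorted replicate 1, or LEC-sorted replicate 2 was left out, at log2 fold changes of -0.76, -1.04, and -1.01 (adjusted p = 0.0511, 0.0528, and 0.059). *Inhbb*, a subunit of activin and inhibin, rose from 3.47 ± 1.01 to 11.5 ± 2.37 TPM (SD, n = 3 each). Its call was kept under the scaling.

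The listed AP-1 and immediate-early genes, which respond quickly to stimuli, also split. *Fosb* had the largest fall of all listed genes, from 15.3, 6.49, and 3.40 TPM to 1.05, 2.61, and 1.40 TPM, with controls that differed from each other more than those of other genes in this group. *Ier3* rose from 150.3, 103.6, and 135 TPM to 448, 552, and 327 TPM. *Fosl2* rose from 105, 65.0, and 93.1 TPM to 151, 138, and 162 TPM, and its call was lost under the scaling.

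Of 66 genes in the list for proteases and inhibitors, 5 were listed. The matrix metalloproteases among them rose while the tissue inhibitors fell. *Mmp3*, stromelysin, was at 7.23, 14.2, and 11.1 TPM in LEC control against 55.8, 91.3, and 35.8 TPM in LEC-sorted. *Mmp13*, a collagenase, was lower, at 0.10, 0.47, and 0.22 TPM and at 2.55, 9.26, and 2.28 TPM. *Timp3* fell from 216, 178, and 133 TPM to 76.7, 99.0, and 110.4 TPM, and *Timp2* from 453, 587, and 487 TPM to 195, 318, and 297 TPM. *Adamts9*, a protease of the ADAMTS family, rose from 8.72 ± 0.80 to 16.0 ± 2.97 TPM (SD, n = 3 each). Of these 5 genes *Adamts9* alone lost its call under the scaling, which enlarges falls such as those of *Timp2* and *Timp3*.

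Among 6 listed metabolic enzymes, *Odc1*, the rate-limiting enzyme of polyamine synthesis, had the highest level and the widest sorted libraries, at 635, 576, and 712 TPM in LEC control against 2922, 1496, and 1046 TPM in LEC-sorted. *Akr1b3*, aldose reductase, was steadier, from 192 ± 24.9 to 497 ± 70.7 TPM. *Ass1*, which acts in arginine synthesis, fell from 303 ± 45.8 to 143 ± 11.2 TPM (SD, n = 3 each), and the carbonic anhydrase-related gene *Car8* also fell. *Odc1*, *Ampd3*, and *Acsl3* lost their call under the scaling, and *Acsl3* also without LEC control replicate 2 (adjusted p = 0.0521).

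Membrane transport and receptor genes were mostly higher, as were the listed genes in general (127 of 191). The 7 solute carriers and channels had a median log2 fold change of 0.83, against 0.87 over all listed genes. Of 7 solute carriers and channels 5 rose, among them *Slco4a1* (49.8 ± 12.3 to 124 ± 22.4 TPM) and the iron transporter gene *Slc11a2* (18.7 ± 1.42 to 42.3 ± 4.19 TPM; SD, n = 3 each), and the potassium channel gene *Kcnf1* and the neutral amino acid transporter gene *Slc1a4* fell. The calls for *Slc12a2*, *Slco3a1*, and *Slc2a1* were lost under the scaling. *Gpr84*, a receptor for medium-chain fatty acids on myeloid cells, went from 1.48, 4.41, and 2.41 TPM to 15.01, 21.6, and 14.4 TPM. *Rgs16*, a brake on G protein signalling, was highest in control 1 and sorted replicate 1, with 282, 106.5, and 162 TPM against 579, 470.3, and 338 TPM. *Lpar1*, a receptor for lysophosphatidic acid, rose by 0.85 on the log2 scale and, like *Rgs16*, lost its call under the scaling.

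Of 59 genes in the list for cytoskeleton and cell shape, 4 were listed, of which 3 were called lower and 1 higher. The study's own category for regulation of cell shape held other genes, with *Vcam1*, *Pdpn*, *Itga7*, *Sele*, and *Selp* raised. *Sncg*, gamma-synuclein, fell from 72.0, 169, and 82.8 TPM to 26.2, 44.5, and 30.5 TPM. *Ceacam1*, a homophilic adhesion molecule, fell from 16.7, 18.2, and 6.89 TPM to 2.20, 4.59, and 5.23 TPM, and its control 3 was close to the sorted libraries. *Synpo*, an actin-binding protein, rose from 126 ± 0.57 to 198 ± 25.3 TPM (SD, n = 3 each) and stood at 0.01 under the scaling.

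Outside the gene groups, 105 listed genes had a median log2 fold change of 0.68, with 54 called higher and 45 lower. *Hmox1*, which degrades heme, was among the 15 largest falls, from 789.7, 1350.3, and 906 TPM to 279, 577, and 508 TPM. Other abundant genes with lower means, picked after their values had been seen, were the ferritin light chain gene *Ftl1* (4376 ± 615 to 2659 ± 461 TPM) and the intermediate filament gene *Vim* (6263 ± 527 to 4154 ± 526 TPM; SD, n = 3 each). The call for *Ftl1* was lost without LEC control replicate 2 or 3 (adjusted p = 0.0531 and 0.0518). That for *Vim* was lost in 5 of the 6 fits that left out a library, with LEC-sorted replicate 3 as the exception, and its log2 fold change then lay between -0.65 and -0.49. Copper-dependent ferroxidase *Cp* rose from 1.59, 1.60, and 1.37 TPM to 9.67, 33.1, and 22.8 TPM.

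Several gene groups were small or empty. Of 73 genes of the interferon response, *Gbp5* was listed, with 11.1, 25.6, and 21.9 TPM in LEC control against 26.8, 55.1, and 77.8 TPM in LEC-sorted. Its call was lost without LEC control replicate 1, LEC-sorted replicate 2, or LEC-sorted replicate 3 (adjusted p = 0.0593, 0.0583, and 0.0729), and also under the scaling (adjusted p = 0.151). Of 14 chemokine receptor genes, 71 extracellular matrix genes, and 37 cell cycle genes, 0 were listed. The levels of genes that were not listed were not analysed here.

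The LEC-sorted libraries differed from each other in a patterned way. Among the 127 higher genes, LEC-sorted replicate 2 was the highest of 3 in 76 genes and replicate 3 the lowest in 67. The order replicate 2, replicate 1, replicate 3 from high to low held in 42 genes, and the order 2, 3, 1 in 34. *Lcn2*, *Csf2*, *Csf3*, *Cxcl1*, *Cxcl2*, *Cxcl3*, *Cxcl5*, and *Ccl20* all had the former order, whereas *Dcn*, *Krt8*, *Steap4*, *Cp*, *Pitx1*, and *Padi3* had the latter, which was seen after the values were known. Other chemokine genes did not share the former order, as *Ccl2* and *Ccl9* had the order 2, 3, 1 and *Ccl7* and *Pf4* the order 1, 2, 3. Among the 64 lower genes, LEC-sorted replicate 1 was the lowest of 3 in 48 and LEC control replicate 2 the highest in 43, and both held in 33. The spread, as SD of log2(TPM + 1), was larger in LEC-sorted than in the controls in 78 of the 127 higher genes and in 14 of the 15 largest rises.

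**Figure D4:**
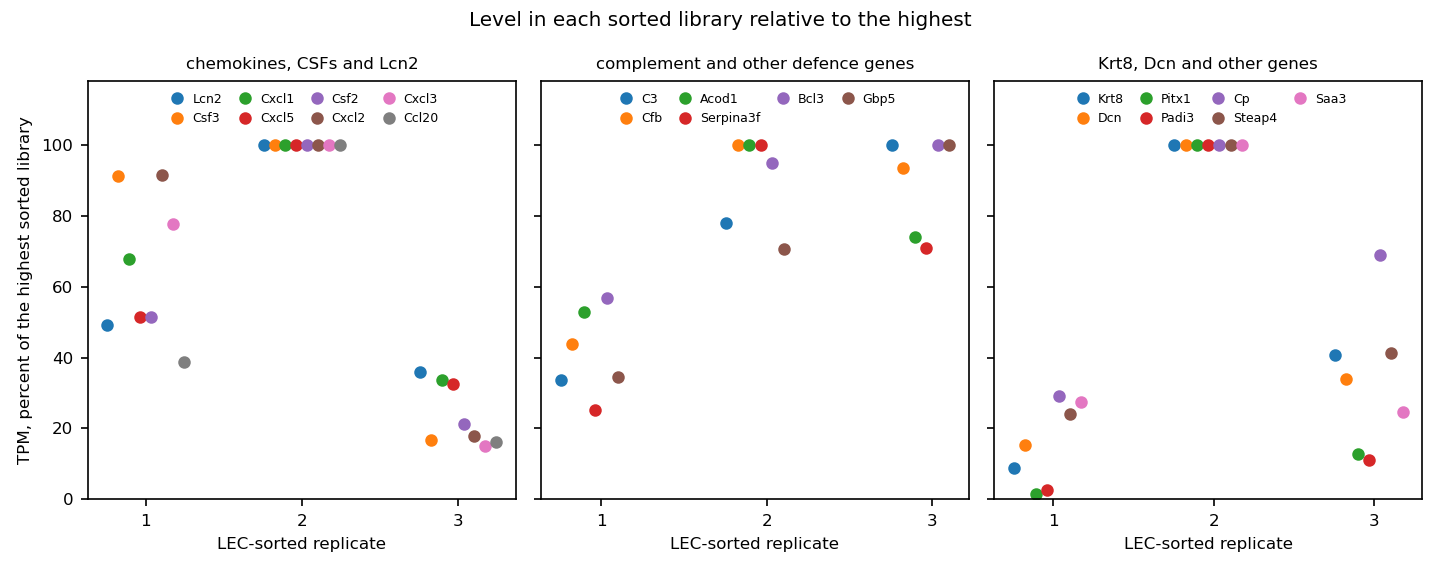
TPM in each LEC-sorted replicate (x axis) as a percentage of the highest sorted library of the same gene (y axis), for chemokines, colony-stimulating factors, and *Lcn2* (left), complement and other defence genes (middle), and *Krt8*, *Dcn*, and other genes (right). Replicate 3 is lowest in the left panel, replicate 1 is lowest in the middle panel, and in the right panel replicate 2 stands above both others. The genes were chosen after their values had been seen, and other members of the same groups had other orders. Replicate 1 was lowest for the chemokine genes *Ccl2* and *Ccl9*, and replicate 3 for the defence genes *Ptx3*, *Zc3h12a*, *Saa3*, and *Cebpb*.

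The size of some rises depended on single libraries. While 0 genes changed direction when a library was left out, this was fixed in advance for the 185 genes whose groups did not overlap. Without LEC-sorted replicate 3, the log2 fold changes of *Csf3*, *Cxcl2*, *Cxcl3*, *Ccl20*, and *Ccl7* were 7.81, 5.26, 5.19, 4.61, and 3.15, up from 6.97, 4.49, 4.39, 3.99, and 2.55. Without LEC-sorted replicate 2, those of *Dcn*, *Ccl20*, and *Saa3* were 4.04, 3.34, and 2.81, down from 4.73, 3.99, and 3.41, and without replicate 1 that of *Dcn* was 5.35. In all, 147 of the 184 calls were kept without each single library, 107 of them higher and 40 lower.

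In the marker lists for other cell types, the listed members were *Krt8* and *Dcn*. *Sprr2b*, *Padi3*, and *Pitx1*, with higher means in LEC-sorted, were in none of the lists and were not counted as markers. *Krt8*, a keratin of simple epithelia and the listed gene among 40 keratinocyte and carcinoma markers, was listed at 0 in all 3 controls and at 0.19, 2.19, and 0.89 TPM in LEC-sorted. HaCa4-sorted cells had a mean of 221 TPM of *Krt8*, so the LEC-sorted levels were 0.086, 0.99, and 0.40% of it, and the part of carried-over HaCa4 RNA in the other differences was not tested. The call for *Krt8* was lost in 5 of 6 fits that left out a library, with an adjusted p of at least 0.0549 in these, and under the scaling (adjusted p = 0.0684). *Dcn*, a proteoglycan of fibroblasts and the listed gene among 20 fibroblast and mural markers, was at 0.07, 0.60, and 0.26 TPM in LEC control and at 13.6, 88.9, and 30.1 TPM in LEC-sorted. Of 20 leukocyte markers 0 were listed. In bulk RNA, a change in the number of cells of a type and a change in RNA per cell cannot be told apart.

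The share of HaCa4-sorted levels differed from gene to gene among those listed in both cell lines. *Cxcl3* in LEC-sorted was at 13.6, 17.5, and 2.63% of the HaCa4-sorted mean of 299 TPM, with 40.7, 52.4, and 7.84 TPM against 0.70, 0, and 0.26 TPM in the LEC controls. *Tnfrsf9* was at 4.54, 4.27, and 6.29% of the HaCa4-sorted mean of 29.7 TPM, with 1.35, 1.27, and 1.87 TPM against 0.26, 0.28, and 0.29 TPM. *Selp*, *Mmp3*, and *Adm* were higher in every LEC-sorted library than the HaCa4-sorted means of 16.8, 8.50, and 9.96 TPM. The percentages of *Cxcl3* and *Tnfrsf9* exceeded that of *Krt8* in each of the 3 libraries. *Krt8* is a weak yardstick, at 0.19, 2.19, and 0.89 TPM there, and the part of carried-over HaCa4 RNA in these genes was not tested.

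The libraries of both groups overlapped in 6 genes. *Wfdc17*, a secreted protein of the WAP family, was at 0.58 TPM in LEC-sorted replicate 1, within the controls (0.37, 0.41, and 1.04 TPM), and at 37.6 and 26.6 TPM in replicates 2 and 3. Its log2 fold change of 2.91 had a standard error of 1.11, and without LEC-sorted replicate 1 it was 4.37, whereas its call was lost when any of the other libraries was left out (adjusted p from 0.0625 to 0.124). *Gm21451* was listed at 0 in the controls and LEC-sorted replicate 2, at 0.13 TPM in replicate 3, and at 68.7 TPM in replicate 1, so that a single library gave its difference. *Gm8210* was highest in LEC-sorted replicate 2 (0.39, 24.5, and 2.87 TPM), as were *Padi3* (0.11, 4.49, and 0.50 TPM) and *Pitx1* (0.05, 3.56, and 0.45 TPM). *Pmp22*, a myelin and junction protein, fell from 79.2, 45.7, and 73.2 TPM to 24.5, 35.9, and 45.7 TPM and shared the value of 45.68 TPM between the groups. Its call was lost without LEC control replicate 1 or 3 or LEC-sorted replicate 1 (adjusted p = 0.0673, 0.0692, and 0.062).

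The 7 genes that were not called included 4 of these, *Gm21451*, *Gm8210*, *Padi3*, and *Pitx1*, with adjusted p of 0.202, 0.0739, 0.128, and 0.13. *Tnfsf15* stayed near the limit of the 2 decimals given, at 0.02, 0, and 0.04 TPM in LEC control against 0.34, 0.71, and 0.16 TPM in LEC-sorted (adjusted p = 0.144). *Parvb* and *Pip5k1c*, which act at focal adhesions, had adjusted p of 0.0329 and 0.0178 but log2 fold changes of -0.46 and -0.47. *Gm21451*, *Gm8210*, *Sprr2b*, *Psg22*, *Hist1h2bc*, *Ftl1*, *Saa3*, and *Serpina3f* belong to families of similar or copied genes, and how reads were divided among copies is not given in the sources used here, so their values are uncertain.

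Some of the listed genes lay side by side in the genome. With neighbours defined as listed genes at most 500 kb apart, 44 genes formed 19 runs in GRCm38.p6. The longest held *Cxcl5*, *Pf4*, *Cxcl3*, *Cxcl1*, and *Cxcl2* (chr5:90759298-90905938), all higher. Other runs of higher genes were *Sele* and *Selp* (chr1:164039614-164150026), *Ccl2* and *Ccl7* (chr11:82035577-82047525), and *Mmp13* and *Mmp3* (chr9:7272514-7455975). Neighbours did not always move alike, as *Bcl3* rose and *Fosb* fell (chr7:19302696-19822824), and *Socs3* rose and *Timp2* fell (chr11:117966079-118355411).

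A total of 23 genes were listed in both cell lines, and the change in LECs was set against that in HaCa4 cells in a joint limma fit of the 11 libraries with an interaction term. The interaction passed the threshold of 0.05 in 19 of them (82.6%), adjusted over the 23 genes. All 23 had been listed for a difference in LECs, whereas the basis on which 290 genes were listed for HaCa4 cells is not given in the sources used here. The genes with opposite directions formed 2 sets of 8. *Mmp3*, *Mmp13*, *Ikbke*, *Lif*, *Tnfrsf9*, *Krt8*, *Lrig1*, and *Micall2* were higher in LEC-sorted and lower in HaCa4-sorted, and in 7 of them, all except *Micall2*, the HaCa4 control had the higher level of the 2 controls. *Ceacam1*, *Kcnf1*, *Id2*, *Gas6*, *Timp3*, *Mest*, *Sfrp1*, and *Kdr* were lower in LEC-sorted and higher in HaCa4-sorted, and in all 8 the LEC control had the higher level. In HaCa4 cells, the log2 fold changes of *Tnfrsf9* (-0.489), *Lrig1* (-0.419), *Micall2* (-0.499), and *Sfrp1* (0.419) fell short of 0.5. Changes within HaCa4 cells, which had 2 controls, are given here without a test of their own. Leaving out LEC control replicate 2 ended the LEC call for *Mest* (adjusted p = 0.0531).

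**Figure D5:**
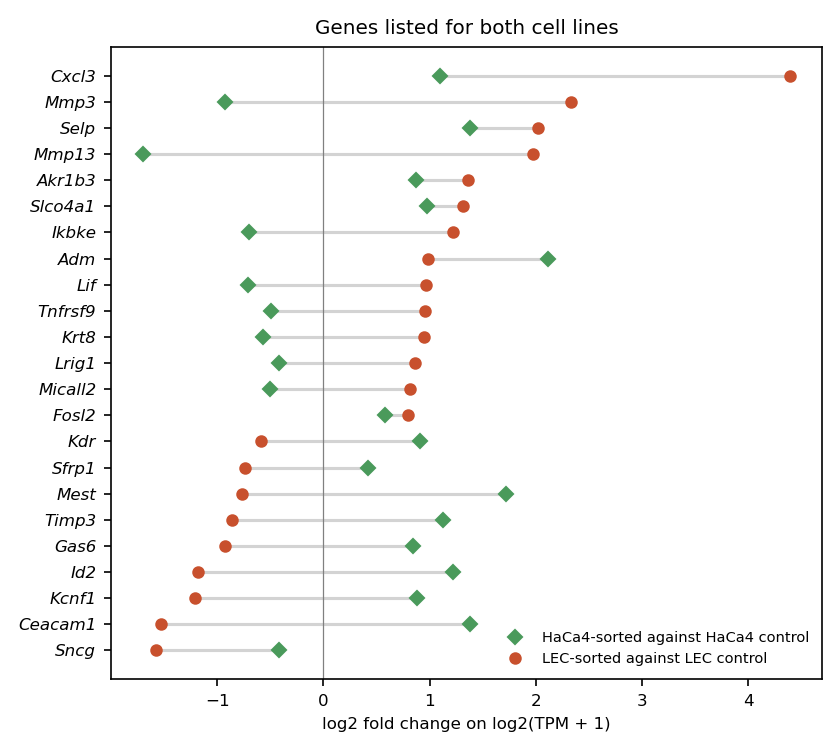
Log2 fold change on log2(TPM + 1) (x axis) of the 23 genes listed in both cell lines, for LEC-sorted against LEC control (orange circles) and HaCa4-sorted against HaCa4 control (green diamonds), joined by grey lines. In 16 genes the points lie on opposite sides of 0, and *Cxcl3*, *Mmp3*, and *Mmp13* have the widest gaps.

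*Mmp13* had the largest difference between the lines, 3.67 in log2 units (standard error 0.67, adjusted p = 0.000931), with 12.04 TPM in HaCa4 control and 2.69 TPM in HaCa4-sorted against 0.26 and 4.70 TPM in the LEC groups. *Id2* fell in LECs and went from 70.9 and 41.0 TPM to 160.1, 93.6, and 137 TPM in HaCa4 cells, a difference of -2.40 (standard error 0.41, adjusted p = 0.000859). For some genes the HaCa4 levels were close to 0, as in *Kdr*, at 0.05 and 0 TPM in HaCa4 control and 0.15, 1.87, and 1.16 TPM in HaCa4-sorted, where LEC control had 152 TPM. *Gas6*, *Mest*, *Sfrp1*, *Timp3*, and *Adm*, which rose in both lines, likewise had under 2 TPM in HaCa4 control, over 60 TPM in LEC control, and their highest HaCa4-sorted level in replicate 2. The part of carried-over LEC RNA in these differences was not tested.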

How the data were processed

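RNA of LEC control and LEC-sorted cells (n = 3 each) was sequenced. Reads had been filtered and aligned by the authors with HISAT2 2.0.4 (build GRCm38.p6), who used DESeq2 for their own calls. Deposited by the authors were TPM of each listed gene in every library, with 2 decimals and without pooling; the tool that gave TPM is not given in the sources used here. All 191 LEC genes were matched by Entrez ID to RefSeq.

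Levels were fitted as log2(TPM + 1) with limma 3.58.1 in R 4.3.3 (empirical Bayes with a mean trend, LEC libraries alone, two-sided). The step was tested on simulated data. Since the table holds selected genes, variance prior and adjusted p-values describe this selection. Genes listed in both lines were tested by an interaction term over 11 libraries. No replicate pair shared more than 1 identical value above 0.

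Alternatives were pseudocounts of 0.1 and 5, mean TPM filters of 1 and 10, scaling to the same median, no trend, a replicate block, a log2 threshold of 1, and leaving out each library.

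Genes named were members of gene lists, the 15 largest rises and falls, uncalled or overlapping genes, and genes of both lines. The members and lists were chosen with earlier results of these data known. Python 3.11.15, pandas 2.3.3, and matplotlib 3.10.9 were used.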

Additional observations from a re-analysis of the deposited data

Results flagged for a closer look

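In 19 genes the change after co-culture differed between LECs and HaCa4 cells (change in LECs minus change in HaCa4 cells on the log2 scale, adjusted p of at most 0.05 over 23 genes from the interaction term in limma). The change was more positive in LECs for *Mmp13* (3.67), *Cxcl3* (3.29), *Mmp3* (3.26), *Ikbke* (1.93), *Lif* (1.67), *Krt8* (1.52), *Tnfrsf9* (1.45), *Micall2* (1.32), and *Lrig1* (1.28). It was more negative in LECs for *Ceacam1* (-2.91), *Mest* (-2.49), *Id2* (-2.40), *Kcnf1* (-2.09), *Timp3* (-1.99), *Gas6* (-1.76), *Kdr* (-1.50), *Sncg* (-1.16), *Sfrp1* (-1.16), and *Adm* (-1.13). *Cxcl3* and *Adm* rose and *Sncg* fell in both lines, so these differ in size. *Adm* was at 1.35 TPM in HaCa4 control and 344 TPM in LEC control, and the part of carried-over LEC RNA in its HaCa4 change was not tested. The adjusted p of *Adm*, 0.0468, was the nearest to the threshold among the 19. The difference missed the threshold for *Akr1b3* (0.50, standard error 0.28), *Selp* (0.64, standard error 0.56), *Slco4a1* (0.34, standard error 0.40), and *Fosl2* (0.22, standard error 0.37).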

How the results depend on the processing

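After scaling the libraries to a common median, 110 genes were called, 46 higher and 64 lower, and 108 of the 184 calls were kept. By its construction this removes a rise shared by most listed genes and enlarges the falls, so that lower genes hardly could lose their call. *Lims1* (-0.0851), *Plekhm3* (-0.0275), and *Slc2a1* (-0.0498) turned negative under it, and 188 genes kept their direction. At a log2 threshold of 1, 95 genes were called, 74 higher and 21 lower. Leaving out a library gave 165 to 177 calls, 111 to 124 higher and 50 to 62 lower, with 37 of the 184 calls lost at least once. Pseudocounts of 0.1 and 5 gave 186 and 170 calls, and filters on the mean TPM of at least 1 and 10 gave 179 of 183 and 141 of 144. The number of interaction calls was 16 to 20 over all alternatives run, against 19. Whether the replicate numbers paired the libraries could not be settled from 3 libraries per group. Correlations of same-numbered deviations were 0.23, 0.074, and -0.019, and those of other pairs ran from -0.18 to 0.15. A replicate block gave 182 calls, 121 higher and 61 lower, and 20 interaction calls. TPM carry no depth, so the precision of low values is unknown.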
